A study of Mus musculus with 7 samples.

Results

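SOX2 regions that carried RNA polymerase II (POLII) but no C-MYC peak were analysed in iMOP cells, a mouse line of immortalized multipotent otic progenitors. SOX2 peaks with an overlap of 1 bp or more between the 2 replicates were joined into regions, and 16546 of the 49850 merged regions held a peak of both replicates. A region was kept when neither C-MYC replicate had a peak on it and at least 1 POLII replicate did. This gave 890 of the 16546 SOX2 regions (5.38%). The regions were thus chosen by the peak calls of all 6 lists, so the presence of SOX2 and POLII and the lack of C-MYC are no findings, and the values that follow are descriptions without tests.

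SOX2 is an HMG-box transcription factor that binds DNA in the minor groove, bends it and helps to keep neural and sensory progenitors undifferentiated. In the developing inner ear it marks the cells that give rise to hair cells, supporting cells and neurons. C-MYC binds DNA with its partner MAX, often at promoters that are already active, and is known for raising the output of such promoters and for driving proliferation. POLII transcribes protein-coding genes, gathers near transcription start sites and is also found at active enhancers. A SOX2 region with POLII and no C-MYC is therefore a place where SOX2 and the transcription machinery were both detected and no peak of the factor introduced to make the line was called.

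Every ChIP came from proliferating iMOP cells grown as floating spheres in medium with B27 and 20 ng/ml of bFGF. The line was made by infecting SOX2-expressing cochlear progenitors with a *c-Myc* retrovirus. Endogenous POLII, C-MYC and SOX2 were immunoprecipitated with 1 antibody each, and each antibody had 2 biological replicates. An input DNA library was also made, but it has no peak list, so the regions could not be compared with input peaks. ChIP-seq sequences the DNA that an antibody pulls down, a peak is a stretch with more sequence tags than the background, and its fold enrichment is the linear ratio to that background. The lists held 26637 to 53528 peaks and 1705241 to 4488517 tags in peaks, the total number of reads is not in them, and counting intervals cover counting error only. The POLII replicates stood apart, with 9.82% of the peaks of replicate 1 and 16.5% of those of replicate 2 overlapping the other, so results that rest on either are given for each. Positions are those of mm9, the build named in the submitters' processing notes, and genes were not assigned because no annotation of that build was used here.

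The lack of C-MYC was rare among SOX2 regions with a peak of both SOX2 replicates, and weak regions lacked it more often. Of these 16546 regions, 1310 (7.92%) had no C-MYC peak in either replicate, 779 had one in a single replicate and 14457 had one in both. The rarity depended on the use of both SOX2 lists. Taken from SOX2 replicate 1 alone, regions with POLII and no C-MYC already made up 16.3% of 39878 regions. From SOX2 replicate 2 alone they made up 7.93% of 26637. The share without C-MYC, with or without POLII, is at least as high in each. The median SOX2 region without C-MYC held 23 tags in SOX2 replicate 1 and 32 tags in SOX2 replicate 2. With C-MYC in a single replicate the medians were 30 and 45 tags, and with C-MYC in both they were 85 and 65 tags. The order was the same in both SOX2 replicates. Median region length followed it as well, at 720.5 bp, 894 bp and 1191 bp. When the SOX2 regions were ranked by their mean score rank over the SOX2 replicates and divided into 4 equal groups, regions with POLII and no C-MYC made up 14.0% of the weakest group (95% Wilson interval 13.0 to 15.1). The share was 4.83% in the next group (4.22 to 5.53), 2.01% in the third (1.62 to 2.48) and 0.677% in the strongest (0.469 to 0.976). The weakest group held 579 of the 890 regions and the strongest held 28.

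The POLII replicates marked largely different members of the set. POLII replicate 1 alone had a peak on 309 of the 890 regions, or 34.7% (95% Wilson interval 31.7 to 37.9). POLII replicate 2 alone had one on 321 regions, or 36.1% (33.0 to 39.3), and both replicates had one on 260 regions, or 29.2% (26.3 to 32.3). The split was nearly even, and it differed from that of the 13734 SOX2 regions with POLII and C-MYC. There 265 regions (1.93%) had POLII replicate 1 alone, 10839 (78.9%) had replicate 2 alone and 2630 (19.1%) had both. The set without POLII replicate 1 was 581 regions, and without POLII replicate 2 it was 569.

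Since a POLII peak was part of the rule, the occupancy of each POLII replicate was also read over all SOX2 regions, whether or not POLII was present. POLII replicate 1 had a peak on 43.4% of the 1310 SOX2 regions without C-MYC (40.8 to 46.1) and on 19.0% of the 15236 with C-MYC (18.4 to 19.6), against 20.9% of all SOX2 regions. POLII replicate 2 had a peak on 44.4% of the regions without C-MYC (41.7 to 47.1) and on 88.4% of those with it (87.9 to 88.9), against 84.9% of all. The replicates of 1 antibody thus differed in opposite directions, with a share without C-MYC minus that with C-MYC of 24.4 percentage points in replicate 1 and -44.1 points in replicate 2. Peaks of both POLII replicates lay on 19.8% of the regions without C-MYC (17.8 to 22.1) and on 17.3% of those with it (16.7 to 17.9), with 17.5% over all SOX2 regions. The difference in POLII replicate 1 depended on the SOX2 lists used and was smaller with either list alone. With the regions taken from SOX2 replicate 2 alone it was 1.80 points, at 17.1% without C-MYC and 15.3% with it, and from SOX2 replicate 1 alone it was 14.0 points. The difference in POLII replicate 2 was -57.4 and -59.8 points with these single lists.

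**Figure D1:**
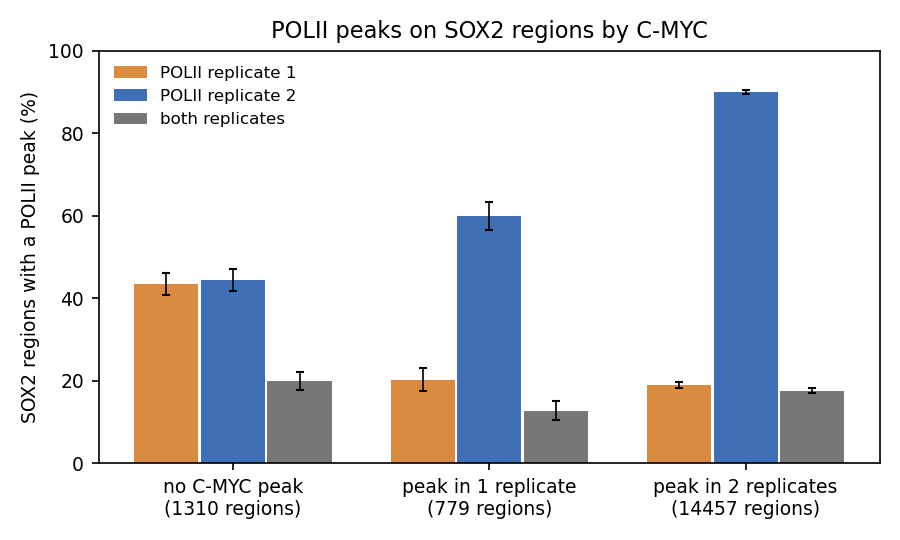
Share of SOX2 regions (%) with a peak of POLII replicate 1, of POLII replicate 2 or of both, for SOX2 regions with no C-MYC peak, a C-MYC peak in 1 replicate and C-MYC peaks in 2 replicates. Bars are shares and error bars 95% Wilson intervals. POLII replicate 2 rises from 44.4% to 89.9% along the axis while POLII replicate 1 falls from 43.4% to 18.9%.

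The opposite course of the POLII replicates was also seen among SOX2 regions of like strength. In the weakest of the 4 groups by SOX2 score, POLII replicate 1 had a peak on 43.2% of the 920 regions without C-MYC and on 13.8% of the 3216 with it. POLII replicate 2 had one on 35.5% and 66.7%. In the second group the shares were 41.9% and 16.1% for replicate 1 and 57.0% and 87.5% for replicate 2. In the third group they were 41.2% and 18.5% for replicate 1 and 78.4% and 95.5% for replicate 2, with 97 regions without C-MYC. POLII replicate 2 thus rose with SOX2 strength in regions of both kinds, and POLII replicate 1 without C-MYC stayed between 41.2% and 43.2% over these groups. The strongest group had only 28 regions without C-MYC, of which 21 (75%) had POLII replicate 1 and 27 (96.4%) had POLII replicate 2. With C-MYC the shares in that group were 26.2% and 99.3%. The difference in POLII replicate 2 was thus smaller in the third group than in the weaker ones, and smallest in the strongest. At regions without C-MYC, POLII replicate 2 was found on 45.7% of those with POLII replicate 1 (41.6 to 49.8). It was found on 43.3% of those without POLII replicate 1 (39.8 to 46.9). With C-MYC these shares were 90.8% (89.7 to 91.8) and 87.8% (87.2 to 88.4). Whether the POLII replicates were related was not tested.

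SOX2 itself was weaker by tags at the 890 regions than at the SOX2 regions with POLII and C-MYC, but not in fold enrichment in both replicates. SOX2 replicate 1 held 10 to 399 tags per region with a median of 25, against a median of 90 with C-MYC. SOX2 replicate 2 held 13 to 295 tags with a median of 33, against 67. The members' medians were 0.278 and 0.493 times those with C-MYC, and 53 (5.96%) and 121 (13.6%) of the 890 regions exceeded the C-MYC median. The median fold enrichment without and with C-MYC was 8.93 and 10.06 in SOX2 replicate 1. In SOX2 replicate 2 it was 6.67 and 6.51, so the replicates did not share a direction. The fold enrichment of 327 regions in replicate 1 and of 479 in replicate 2 was above the median with C-MYC. The members were also shorter, with a median of 737.5 bp and a range from 282 to 3852 bp, against a median of 1211.5 bp. Tags were lower per length as well. SOX2 replicate 1 peaks held a median of 4.09 tags per 100 bp at members and 8.11 with C-MYC, and SOX2 replicate 2 peaks held 5.01 and 6.65. Low SOX2 tags and short regions were not particular to the members. SOX2 regions with C-MYC and no POLII had medians of 30 and 40 tags in SOX2 replicates 1 and 2, and of 812.5 bp. Those with neither C-MYC nor POLII had medians of 19 and 31 tags and of 673.5 bp.

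POLII tags went in opposite directions in the POLII replicates. POLII replicate 1 peaks at the members held 12 to 279 tags with a median of 45, against 30 at the regions with C-MYC. POLII replicate 2 peaks held 12 to 1949 tags with a median of 32, against 129. Of the 569 members with POLII replicate 1, 400 (70.3%, interval 66.4 to 73.9) exceeded the C-MYC median of that list, and of the 581 with POLII replicate 2, 67 (11.5%, 9.18 to 14.4) did so. Median fold enrichment went the same ways, at 8.71 against 7.34 in replicate 1 and 7.56 against 9.29 in replicate 2. Ranked among all peaks of its own list by tags, the median member peak stood at percentile 83.6 in POLII replicate 1 and 25.7 in POLII replicate 2, and at 38.2 in SOX2 replicate 1 and 28.4 in SOX2 replicate 2. The median member peak thus ranked high in POLII replicate 1 and low in the other 3 lists. At the regions with POLII and C-MYC the median percentile was 66.6 in POLII replicate 1 and 65.9 in POLII replicate 2. SOX2 regions with neither C-MYC nor POLII ranked lower still in the SOX2 replicates, at 27.7 and 25.6. The higher tags in POLII replicate 1 were 1.5 times those with C-MYC, and 1.13 times when the regions came from SOX2 replicate 2 alone. With SOX2 replicate 1 alone the ratio was 0.968, which is the other direction.

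**Figure D2:**
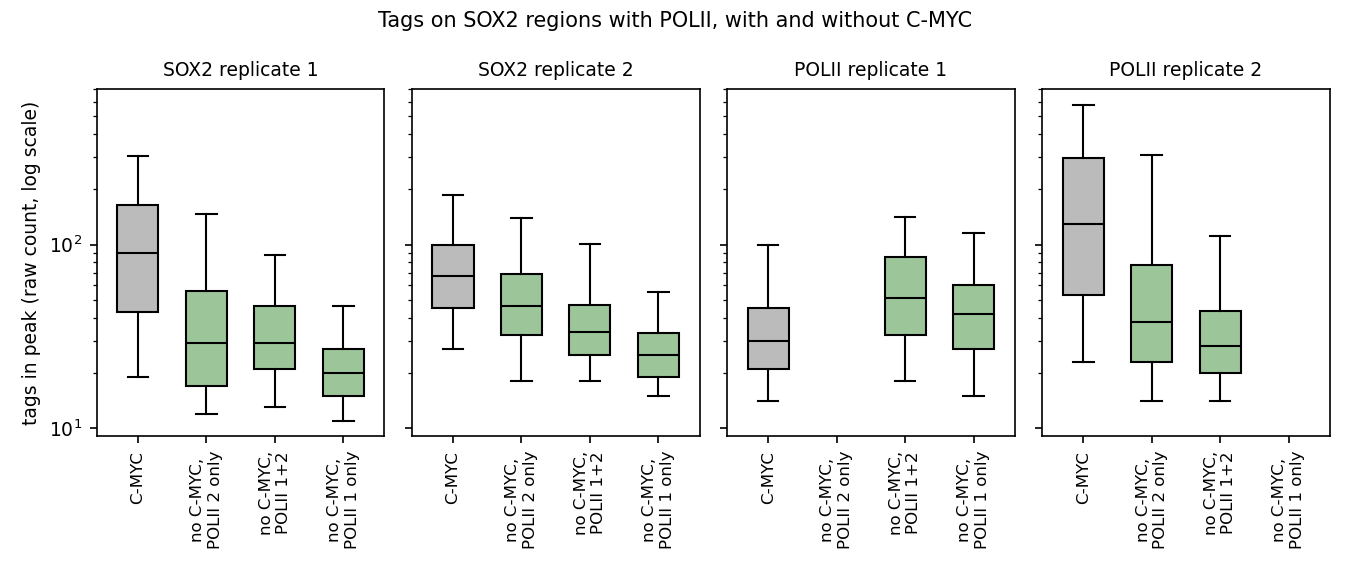
Raw tags per region (log scale) in the SOX2 and POLII replicates for SOX2 regions with POLII and C-MYC (grey) and for those without C-MYC (green), divided by the POLII replicates with a peak. Boxes span the quartiles with the median as a line, whiskers run from the lowest to the highest region after the outer 5% at each end are left out, and an empty place means that the list has no peak there by definition. Green medians lie below the grey median in both SOX2 replicates and POLII replicate 2 (25, 33 and 32 tags over all regions without C-MYC). They lie above it in POLII replicate 1 (45 tags), and some green and grey boxes overlap.

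The members were not uniform, and those with POLII replicate 1 alone had the fewest SOX2 tags at the median. In SOX2 replicate 1 these regions had 20 tags at the median (10 to 71), and in SOX2 replicate 2 they had 25 (13 to 138). Members with POLII replicate 2 alone held medians of 29 (10 to 399) and 46 (13 to 295), and members with both held 29 (10 to 277) and 33.5 (14 to 255). The ranges of the subsets overlapped throughout, and the members with POLII replicate 1 alone had the lowest median in both SOX2 replicates. Fold enrichment did not follow this order. Its medians with POLII replicate 1 alone, replicate 2 alone and both were 9.01, 8.73 and 8.85 in SOX2 replicate 1, and 6.71, 6.43 and 6.79 in SOX2 replicate 2. Median lengths were 647 bp with POLII replicate 1 alone, 856 bp with POLII replicate 2 alone and 775 bp with both. POLII replicate 1 peaks held more tags where replicate 2 also had a peak, with a median of 51 against 42. For POLII replicate 2 the median was lower where replicate 1 also had a peak, at 28 against 38.

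Across the members, the tags of each SOX2 replicate were related to those of either POLII replicate. Spearman's rho between the SOX2 replicates was 0.58 over the 890 members and 0.37 over the 13734 regions with POLII and C-MYC. Between SOX2 replicate 1 and POLII replicate 1 it was 0.63 over 569 members and 0.03 over 2895 regions with C-MYC. Between SOX2 replicate 1 and POLII replicate 2 it was 0.69 over 581 members and 0.88 over 13469 regions with C-MYC. The comparison with C-MYC regions thus went in different directions for the POLII replicates. SOX2 replicate 2 gave 0.51 at members and 0.16 with C-MYC for POLII replicate 1, and 0.58 and 0.33 for POLII replicate 2, so that the direction for POLII replicate 2 also depended on the SOX2 replicate. Between the POLII replicates it was 0.26 over 260 members and -0.07 over 2630 regions with C-MYC. These are descriptions across regions, which share their libraries and whose tags grow with peak length. Per 100 bp of peak, rho between the SOX2 replicates was 0.44 at members and 0.16 with C-MYC, and between the POLII replicates it was -0.02 and -0.26. For SOX2 replicate 1 it was 0.47 and -0.19 with POLII replicate 1 and 0.57 and 0.83 with POLII replicate 2. For SOX2 replicate 2 it was 0.24 and 0.10 with POLII replicate 1 and 0.43 and 0.06 with POLII replicate 2. By fold enrichment, rho at members and with C-MYC was 0.53 and 0.33 between the SOX2 replicates and 0.61 and 0.21 between the POLII replicates. SOX2 replicate 1 gave 0.68 and 0.37 with POLII replicate 1 and 0.59 and 0.68 with POLII replicate 2. With SOX2 replicate 2 these were 0.54 and 0.24, and 0.51 and 0.13. The relation between the POLII replicates at members thus depended on the measure.

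SOX2 and POLII summits, the positions of highest signal, lay close together at the members. The median distance between the summits of SOX2 replicate 1 and POLII replicate 1 was 45 bp at the members and 172 bp at the regions with C-MYC. They lay within 100 bp of each other at 74.3% of the 569 members (70.6 to 77.8) and at 36.5% of the 2895 regions with C-MYC (34.8 to 38.3). For POLII replicate 2 the medians were 49 bp and 31 bp, and the shares within 100 bp were 70.6% (66.7 to 74.1) and 81.8% (81.1 to 82.4). POLII replicate 1 was thus centred on SOX2 more often without C-MYC, and POLII replicate 2 less often. Measured from SOX2 replicate 2, the shares for POLII replicate 1 were 63.8% at members and 26.6% with C-MYC. For POLII replicate 2 they were 68.2% and 61.4%, so the direction for POLII replicate 2 depended on the SOX2 replicate. The POLII summits lay within 100 bp of each other at 66.2% of the 260 members with both and at 30.2% of the 2630 regions with both and C-MYC. The summits of the SOX2 replicates were a median of 63 bp apart at members and 65 bp apart with C-MYC. Shorter regions leave less room, so the distances were also read at regions of 600 to 900 bp alone. There the shares within 100 bp of SOX2 replicate 1 were 73.9% and 60.7% for POLII replicate 1, and 72.9% and 86.4% for POLII replicate 2.

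**Figure D3:**
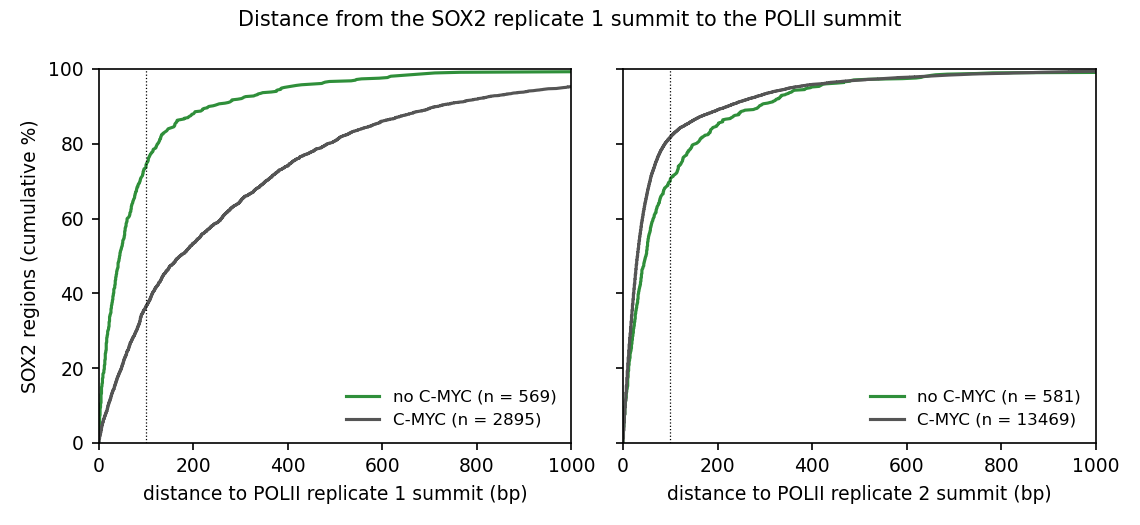
Cumulative share of SOX2 regions (%) by distance in bp from the SOX2 replicate 1 summit to the summit of POLII replicate 1 (left) and POLII replicate 2 (right), with the dotted line at 100 bp. Regions without C-MYC (green) rise faster than those with C-MYC (grey) for POLII replicate 1, with 74.3% and 36.5% within 100 bp, and slower for POLII replicate 2, with 70.6% and 81.8%.

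Most of the members lay some way from the nearest C-MYC peak. The gap from the edge of a member to the nearest C-MYC peak of either replicate ran from 24 to 2118192 bp, with a median of 12368.5 bp. A C-MYC peak lay within 1 kb of 70 members (7.87%), within 5 kb of 248 (27.9%), within 10 kb of 400 (44.9%) and within 100 kb of 785 (88.2%). The 420 SOX2 regions with neither C-MYC nor POLII had a like median of 11654 bp. Their shares within 1 kb, 5 kb and 10 kb were close to those of the members, at 5.95%, 25% and 44.8%. Within 100 kb their share was higher, at 94.5% (91.9 to 96.3) against 88.2% of the members (85.9 to 90.2). The subsets differed. The median gap was 7219 bp for members with POLII replicate 2 alone, 13339 bp for those with both and 19204 bp for those with POLII replicate 1 alone. A C-MYC peak within 1 kb was found at 48 of the 321 regions with POLII replicate 2 alone (15.0%, 11.5 to 19.3), at 12 of the 260 with both (4.62%, 2.66 to 7.89) and at 10 of the 309 with POLII replicate 1 alone (3.24%, 1.77 to 5.85). The POLII peaks of the members also seldom reached C-MYC. Only 2 of the 569 members with POLII replicate 1 and 2 of the 581 with POLII replicate 2 had a POLII peak that overlapped a C-MYC peak beyond the SOX2 region, while 12.9% and 74.7% of all peaks of these lists overlapped C-MYC. The rule itself keeps this share low at members.

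**Figure D4:**
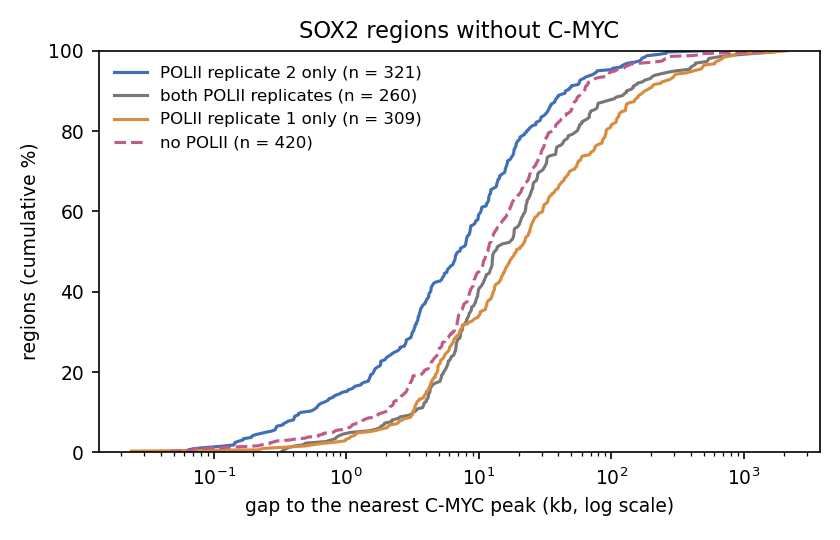
Cumulative share (%) of SOX2 regions without C-MYC by the gap to the nearest C-MYC peak of either replicate (kb, log scale), for regions with POLII replicate 2 alone, both POLII replicates, POLII replicate 1 alone and no POLII (dashed). The curve for POLII replicate 2 alone lies farthest to the left with a median of 7219 bp, and that for POLII replicate 1 alone has a median of 19204 bp.

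Few regions lay at the edges of the rule by distance in bp, but many rested on the call of 1 replicate. POLII replicate 1 alone marked 309 members and POLII replicate 2 alone 321, and 779 SOX2 regions had C-MYC in a single replicate. The member closest to C-MYC, chr3:9574015-9575071, had a C-MYC peak 24 bp away, with 26 and 53 tags in the SOX2 replicates and 51 in POLII replicate 1. The next, chr17:25805049-25806173 and chr11:62269871-62270639, each had one 64 bp away, and 5 members in all had a gap of at most 100 bp. Just outside, chr7:17366010-17368207 shared 3 bp with a C-MYC replicate 2 peak of 585 tags and held 193 and 73 SOX2 tags. It was followed by chr14:67079380-67080159, which shared 19 bp with a C-MYC peak. On the POLII side, the smallest overlap of a member was 189 bp, at chr8:19759317-19759824, and the median was 600.5 bp. The closest excluded region, chr9:109824923-109825564, lay 34 bp from a POLII peak.

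The strongest members were named by a fixed rule, the 10 with the highest mean rank of the SOX2 score over both replicates and the 10 highest among those with both POLII replicates. These came to 11 regions, since 9 of the first 10 had both POLII replicates. The exception was the strongest of all, chr11:87256807-87257624. It held 125 and 116 tags in the SOX2 replicates at 11.45-fold and 13.31-fold enrichment, 512 tags in POLII replicate 2 and no POLII replicate 1 peak. Its nearest C-MYC peak was 204 bp away. Another member with POLII replicate 2 alone, chr11:87275877-87276680, named after its values were seen, lay on the same chromosome, with 147 and 66 SOX2 tags, 307 POLII replicate 2 tags and a C-MYC peak at 245 bp. Both thus lay beside C-MYC peaks.

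The next regions had peaks of both SOX2 and both POLII replicates. At chr9:24346192-24346809, 618 bp long, the SOX2 replicates held 69 and 93 tags and the POLII replicates 86 and 70. The fold enrichment there was 26.67 and 20.89 for SOX2 and 18.82 and 29.14 for POLII, and the nearest C-MYC peak was 24565 bp away. At chr11:53953216-53954435, 1220 bp long, the SOX2 replicates held 116 and 144 tags and the POLII replicates 142 and 111, with C-MYC at 3778 bp. The raw tags of the 4 lists were close to each other at both regions, but they are not scaled for depth. By rank within its own list, the peak at chr9:24346192-24346809 stood at percentiles 68.5 and 81.6 in the SOX2 replicates. In the POLII replicates it stood at 95.9 and 50.7. At chr13:100560657-100561227 the raw tags were 58 and 73 for SOX2 and 66 and 48 for POLII, with 15.08-fold to 18.94-fold enrichment.

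At other named regions the second replicates of both antibodies held more raw tags than the first. At chrX:73843811-73844573 the SOX2 replicates held 40 and 165 tags and the POLII replicates 40 and 130, and the nearest C-MYC peak lay 410145 bp away. At chr12:75904731-75905834 the SOX2 replicates held 51 and 166 tags and the POLII replicates 44 and 109. At chr3:56379066-56379920 they held 43 and 136 tags for SOX2 and 61 and 104 for POLII. In these 3 regions the raw tags differed more between replicate numbers than between antibodies. Raw tags are not scaled for depth, and by rank within its own list POLII went the other way, while SOX2 kept its order. The POLII replicate 1 and 2 peaks stood at percentiles 79.5 and 66.2 on chromosome X, 82.8 and 62.1 on chromosome 12, and 91.2 and 61.0 on chromosome 3. The named regions at chromosome starts, given below, had the same order of raw tags. It was not seen at chr2:181651881-181653982, 2102 bp long with 137 and 159 SOX2 tags and 170 and 162 POLII tags. Nor was it seen at chr8:76142727-76143474, with 50 and 44 SOX2 tags and 89 and 14 POLII tags. At the latter POLII replicate 1 was thus high and POLII replicate 2 close to its lowest count.

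Of the named regions, 2 lay at the start of the sequenced part of a chromosome. At chr12:3109752-3110223 the SOX2 replicates held 50 and 88 tags and the POLII replicates 52 and 76, with 17.52-fold to 26.79-fold enrichment and a C-MYC peak at 344 bp. At chr9:3035602-3036699 the SOX2 replicates held 122 and 255 tags and the POLII replicates 110 and 208, with 6.92-fold to 7.29-fold enrichment. In all, 7 of the 890 members (0.787%) lay within 100 kb of the first peak of any list on their chromosome, against 10 of the 13734 regions with POLII and C-MYC (0.0728%). These 7 members lay at only 2 places, as 6 were in the run chr9:3003881-3036699 and the other was chr12:3109752-3110223. The difference in share thus rests on these places and does not describe chromosome starts in general. Of these 7 members, 6 had both POLII replicates. Mouse chromosomes begin with a centromere and satellite repeats. Whether these peaks lie in repeats was not tested.

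Most members stood alone. The median distance between the start of a member and that of its nearest other member was 618005 bp, and 763 of the 890 had no other member within 100 kb. In runs with gaps of at most 100 kb, 47 runs held 2 members and 9 runs held 3 or more. The longest run, 6 members among 7 SOX2 regions, was chr9:3003881-3036699 at the start of the chromosome, with 30 to 122 tags in SOX2 replicate 1 and 88 to 255 in replicate 2. The next, chr8:19918243-19943791, held 5 members and no other SOX2 region, with 14 to 24 and 29 to 51 SOX2 tags and 39 to 64 tags in POLII replicate 1. A run of 4 members at chr5:116329077-116544054 had peaks of both POLII replicates on every member. The 3 members at chr16:96090041-96167648 were all the SOX2 regions there, and the 2 with POLII replicate 1 held 127 to 140 of its tags. By contrast, the 3 members at chr17:10396942-10457171 had POLII replicate 2 alone, with 24 to 162 tags.

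The members were spread over all chromosomes, with unequal shares. Among the chromosomes with at least 100 SOX2 regions, which leaves out chromosome Y with 1 member among 2, the share was highest on chromosome 5, with 81 of 995 SOX2 regions (8.14%, interval 6.60 to 10.01), chromosome 16, with 46 of 581 (7.92%, 5.99 to 10.4), and chromosome 8, with 66 of 859 (7.68%, 6.08 to 9.66). It was lowest on chromosome 7, with 32 of 984 (3.25%, 2.31 to 4.55), and chromosome 14, with 19 of 577 (3.29%, 2.12 to 5.09). The intervals of chromosomes 5 and 7 did not overlap, and those of most neighbours in this order did. That pair was picked by its values as the highest and the lowest, and the intervals treat regions as independent although some members lie in runs. Whether the shares differ beyond counting error was not tested. POLII replicate 1 had a peak on 64 of the 81 members on chromosome 5 and on 48 of the 66 on chromosome 8, against 63.9% of all members, while on chromosome 16 POLII replicate 2 alone was the largest subset with 22 of 46. On chromosome X, 11 of 316 SOX2 regions were members (3.48%, 1.95 to 6.12), of which 7 had POLII replicate 2 alone, 4 had both and none had POLII replicate 1 alone.

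**Figure D5:**
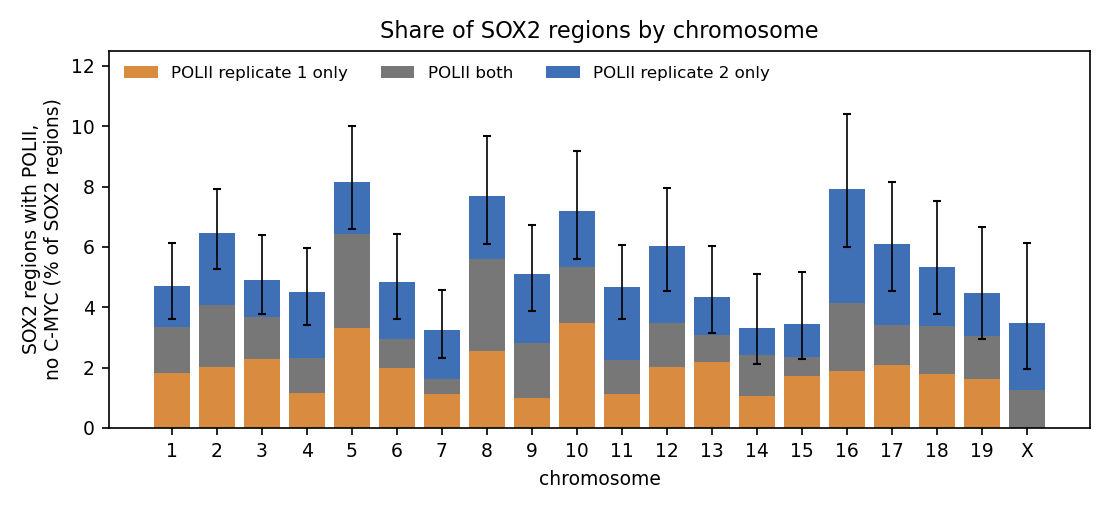
Share of SOX2 regions (%) with POLII and no C-MYC on each chromosome with at least 100 SOX2 regions, divided by the POLII replicates with a peak. Error bars are 95% Wilson intervals of the whole bar. Chromosomes 5 (8.14%), 16 (7.92%) and 8 (7.68%) are highest and chromosome 7 (3.25%) is lowest.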

How the data were processed

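ChIP-seq was analysed for POLII, C-MYC and SOX2 in iMOP cells, with 2 biological replicates each. Peaks were called by the authors for every replicate on its own, and 1 list per replicate was deposited. The tags of a peak were deposited as raw counts with no scaling for depth. The deposited score is 10 times the −log10 of the p-value of a peak, at most 1e-05 in every list. The fold enrichment is a linear ratio deposited by the authors, over a background that is not given in the sources used here. Neither are the aligner and the peak caller. Positions, with the deposited start, end, length and summit, are on mm9 per the labels.

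SOX2 peaks were merged and classified with scipy 1.17.1, pandas 2.3.3 and numpy 2.4.6 in python 3.11.15, and figures were drawn with matplotlib 3.10.9. Overlap was 1 bp or more. Tags were summed over the peaks of a list on a region, and other values came from its highest-scoring peak. All 890 regions had the same coordinates with bedtools 2.31.1, and 5 of 5 quantities were recovered in a test on 2000 simulated sites. Intervals are 95% Wilson intervals over regions, which are not replicates. No test was made, because the rule used the peak calls and each antibody has 2 samples.

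The members and the rules were chosen with earlier results of these data known. The named regions are the 10 with the highest mean rank of the score over both SOX2 replicates and the 10 highest with both POLII replicates. The gene lists, distances to start sites and SOX motifs that had been planned were not run, since the reference used here is of another build, and no sequences are shown for the same reason. Alternatives were an overlap of 50% of the shorter peak, the 50% of each list with the highest score, 26637 peaks from every list, no C-MYC peak within 1 kb, peaks in both POLII lists, and the omission of each replicate in turn.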

Additional observations from a re-analysis of the deposited data

How the results depend on the processing

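Of 81 recomputed values, 55 stayed within 1.5 times the main count or within a spread set for each result, 25 moved and 1 changed direction. This count does not measure robustness. Some values could not change, such as the POLII replicate 1 difference when POLII replicate 2 was omitted. Some spreads were wide, at 3.19 points for the share of SOX2 regions and 0.885 for the POLII tag ratios. The latter was the standard deviation between the POLII replicates, which went opposite ways. The 890 regions became 473 with the 50% of each list with the highest score and 260 with a peak of both POLII replicates. Without 1 replicate the count ran from 569 to 6504, namely 2112 without SOX2 replicate 1, 6504 without SOX2 replicate 2, 581 without POLII replicate 1, 569 without POLII replicate 2, and 1125 and 1181 without C-MYC replicates 1 and 2. As a share of SOX2 regions the main value of 5.38% was 1.57% with a peak of both POLII replicates and 3.44% to 16.3% without 1 replicate. The mean of the members' SOX2 tag medians relative to regions with POLII and C-MYC, 0.385, was 0.543 with the highest-scoring 50% and 0.25 to 0.477 without 1 replicate. The difference in POLII replicate 1 occupancy, 24.4 points, was 13.8 with the highest-scoring 50%, 19.3 with lists of equal size and 1.80 to 24.4 without 1 replicate, lowest without SOX2 replicate 1. That in POLII replicate 2, -44.1 points, was -39.9 with lists of equal size and -59.8 to -40.8 without 1 replicate. POLII replicate 1 tags at members, 1.5 times those with C-MYC, were 0.968 times without SOX2 replicate 2. The alternatives for POLII occupancy and POLII tags were chosen after seeing the data. The distance to start sites and the SOX motif, with their alternatives, were not run. No paired analysis was possible because the results come from no test. A region without a C-MYC peak may hold C-MYC tags below the calling threshold, which the lists do not give.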
